A study of Mus musculus with 6 samples.

Results

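The genes described here are 39 imprinted genes of the mouse, examined in the luminal layer of the uterus and in blastocysts on the evening before embryo attachment. They were chosen by name, and all 39 had a row among the 23420 genes of the count tables. Of these, 32 are annotated as protein coding in GENCODE M21. The named set holds 24 genes known to be expressed from the paternal allele, 12 from the maternal allele, and 3 (*Gnas*, *Blcap* and *Dio3os*) to which no single allele was assigned.

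RNA was sequenced from 6 libraries, 3 of the luminal layer and 3 of blastocysts, collected on day 4 of pregnancy at 8 pm. The control females were Lif-floxed/floxed and received PBS. The *Lif* eKO females were Lif-floxed/floxed Ltf-Cre/+, in which the *Ltf* promoter drives Cre in the uterine epithelium and deletes the floxed gene for leukemia inhibitory factor there, and were given PBS or recombinant Lif (rLif). Treated females were given 20 µg per head by 2 injections, at 10 am and at 6 pm, the latter 2 h ahead of dissection. The blastocysts of all 3 groups are given the genotype Lif-floxed/+, so they differed by the mother that carried them and not by their own labelled genotype. Each group was 1 library made from pooled material of several animals, so no comparison had a replicate check, no p-value is given, and a difference between libraries is not shown to be one between conditions.

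Imprinted genes are transcribed mainly from the copy inherited from 1 parent. A DNA methylation mark, set in the egg or sperm and kept in the embryo, underlies this for many but not all imprinted genes. They lie in clusters in which a long noncoding RNA or a shared insulator acts on several neighbouring genes, and many of them control the growth of the embryo and of the placenta or the proliferation of cells in adult tissue. Read counts per gene sum both alleles, so the values below are expression levels and do not show from which allele a transcript came.

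The libraries held 18996158 to 28460465 counts. The luminal epithelium marker *Wnt7a* had 2916, 2968 and 4338 counts in the luminal libraries and 0 in every blastocyst library, while *Pou5f1*, *Nanog* and the other markers of the inner cell mass were all below 1 CPM (counts per 1000000 after scaling) in the luminal layer. Stroma markers were present in the luminal libraries, at a summed 911 CPM in the control, 1348 in the eKO and 908 in the rLif-treated eKO library for 10 genes. In the same order, smooth muscle markers summed to 70.4, 50.5 and 31.4 CPM and immune markers to 875, 782 and 762 CPM. The microdissected layer was thus not epithelium alone. In the luminal layer, reads of *Lif* itself did not follow the labels. The library labelled eKO had 28 counts while the libraries labelled control and rLif-treated eKO both had 0. The paper places Lif before attachment in the uterine glands, so a luminal count of 0 neither bears out nor contradicts a label. The source of the 28 counts was not tested. The 1447, 1736 and 1250 counts of *Lif* in blastocysts come from embryos that were not the target of the deletion. The luminal counts cover the whole gene, including exons outside any deleted part, and directions below are those between libraries as labelled.

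Pairs of libraries were compared by the ratio of their counts after TMM scaling. A gene was called higher or lower when the exact 95% Clopper-Pearson interval of its log2 ratio lay wholly beyond 1 in either direction, that is, beyond a 2-fold difference. The interval covers counting error only, and PCR reads without molecular identifiers are not independent molecules. A gene was tested in a tissue when its counts over the 3 libraries summed to at least 10. By this, 31 of the 39 imprinted genes were tested in the luminal layer and 32 in blastocysts. In bulk samples, fewer cells of a type and less RNA per cell cannot be told apart.

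Over the 6 comparisons within a tissue, 10 of the 39 genes were called at least once and the other 29, some with too few reads to be tested, were not. In a single one of these comparisons, 3.15% to 17.2% of all genes were called. The share of all genes called at least once over the 6 is not given, so the 10 are not set against a background. The genes on which the account turns are *Ascl2*, *Phlda2* and *Dio3os*. *Ascl2* and *Phlda2* are maternally expressed genes of distal chromosome 7, and *Dio3os* is a noncoding transcript that shares a promoter region with *Dio3* on distal chromosome 12. The 250 bases upstream of each transcription start (RefSeq, GRCm38.p6, 5′ to 3′ on the gene's strand, CpG dinucleotides in capitals) are shown for their CpG content. Methylation was not measured, so these bases are not shown to carry an imprinting mark. They cover chr7:142969265-142969514 (minus strand) for *Ascl2*, chr7:143502525-143502774 (minus strand) for *Phlda2* and chr12:110278069-110278318 (minus strand) for *Dio3os*.
Ascl2: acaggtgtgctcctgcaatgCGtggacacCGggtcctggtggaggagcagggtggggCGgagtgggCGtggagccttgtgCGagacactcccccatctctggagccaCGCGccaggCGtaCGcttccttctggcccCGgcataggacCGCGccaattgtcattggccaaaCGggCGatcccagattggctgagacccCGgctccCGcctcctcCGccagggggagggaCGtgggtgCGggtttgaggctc
Phlda2: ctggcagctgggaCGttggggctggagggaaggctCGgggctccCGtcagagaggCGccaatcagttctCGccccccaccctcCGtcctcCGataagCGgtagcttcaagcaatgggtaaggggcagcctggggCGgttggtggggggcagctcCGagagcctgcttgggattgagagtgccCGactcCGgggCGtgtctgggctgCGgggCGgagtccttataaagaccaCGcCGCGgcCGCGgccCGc
Dio3os: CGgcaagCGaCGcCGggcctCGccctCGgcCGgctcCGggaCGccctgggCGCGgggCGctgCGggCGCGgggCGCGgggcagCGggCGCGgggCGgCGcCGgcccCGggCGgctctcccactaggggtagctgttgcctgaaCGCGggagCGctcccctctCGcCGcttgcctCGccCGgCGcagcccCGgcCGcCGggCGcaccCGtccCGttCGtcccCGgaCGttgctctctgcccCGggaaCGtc
These sequences held 19, 21 and 44 CpG, respectively. With the 50 bases after the start included, the *Dio3os* window held 53 CpG, a number reached by 0.451% of the 32851 promoter windows of the same length in the table. Of the 39 genes, 33 had at least 1 such window, 47 windows in all, with a median of 15 CpG against 7 over all windows. The hexamer TGCCGC, which the zinc finger protein Zfp57 recognises when it is methylated, occurred on either strand in 11 of the 47 windows (23.4%), of 10 genes, and in 11.6% of all windows. The hexamer itself holds a CpG, and the part of the higher CpG content in its share was not tested. TTCNNNGAA, the palindrome bound by Stat proteins, through which Lif signals, occurred in 6 of the 47 windows (12.8%), of 5 genes, and in 8.3% of all windows. Some windows of a gene overlap and hold the same match, and a match is not shown to be a binding site. None of the 3 sequences shown held either motif.

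**Figure D1:**
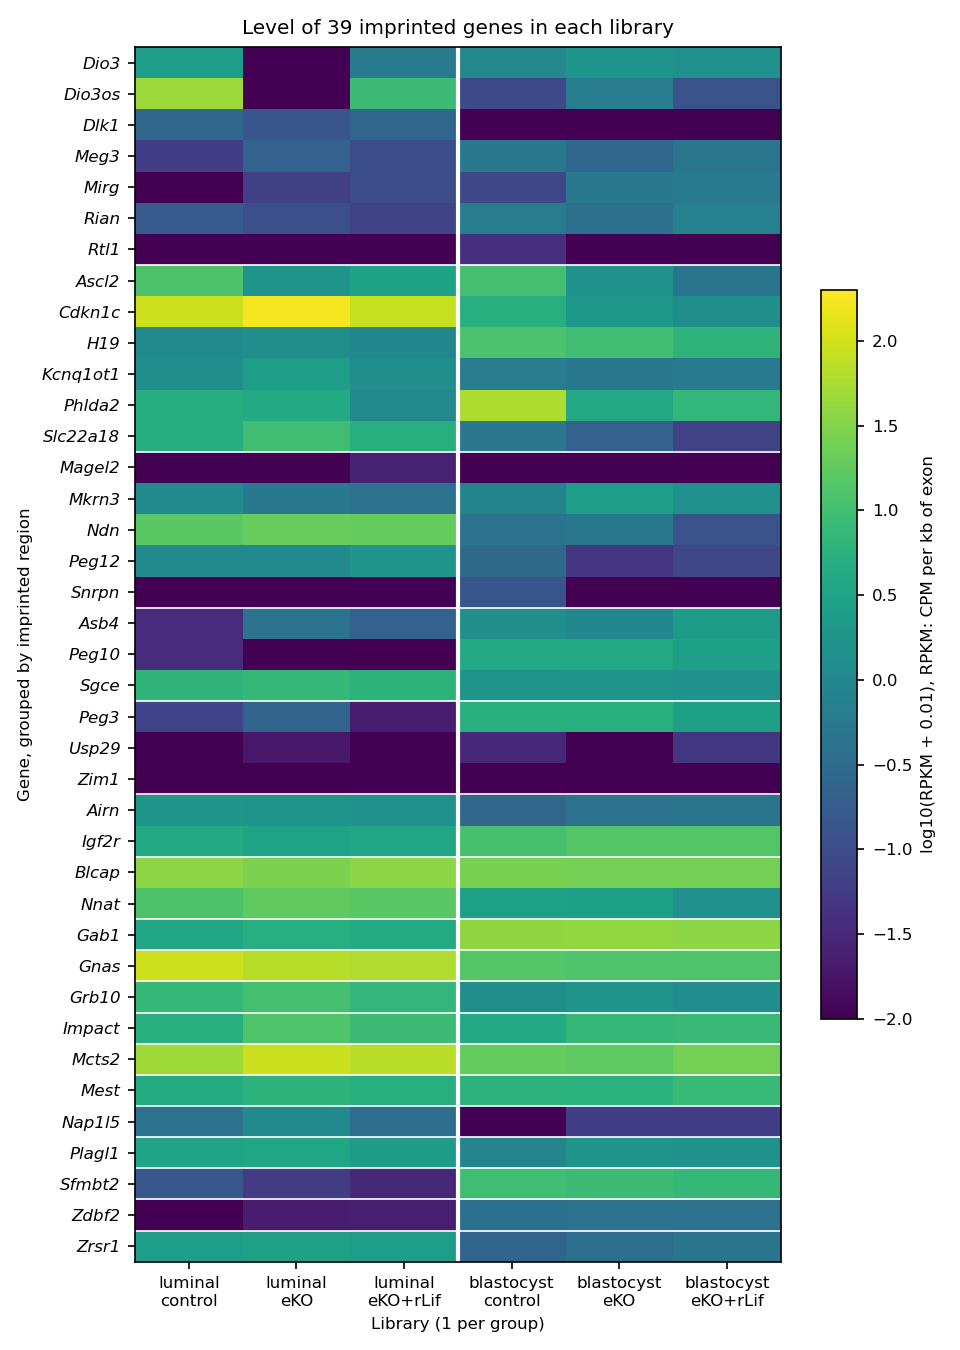
Level of each of the 39 imprinted genes (rows, grouped by imprinted region) in each of the 6 libraries (columns), as log10 of RPKM plus 0.01, by colour. *Cdkn1c* and *Gnas* stood high in the luminal libraries, *Gab1* and *Sfmbt2* in the blastocyst libraries, and *Dio3os* fell from 46.7 to 0 between the luminal control and eKO libraries.

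To compare levels between genes, counts were expressed per length, as CPM per kilobase of exon (RPKM). On this scale the highest imprinted gene of the luminal control library was *Cdkn1c*, a cyclin-dependent kinase inhibitor that restrains cell proliferation, at 94.3. It was followed by *Gnas*, which encodes the stimulatory G protein alpha subunit, at 92.4, by *Mcts2* at 48.6 and by *Dio3os* at 46.7. In the blastocyst control library the highest level was that of *Phlda2*, a pleckstrin homology protein known to limit growth of the placenta, at 60.0, followed by the signalling adaptor *Gab1* at 38.1 and by *Blcap* at 26.0. In the blastocyst eKO library the level of *Phlda2* was 3.97, below those of *Gab1*, *Blcap*, *Mcts2*, *Igf2r*, *Gnas* and several others. *Mcts2* and *Zrsr1* are retrogene copies of X-linked genes, and since the handling of reads that map to several places is not given in the sources used here, their counts are uncertain. Together the 39 genes took between 0.0773% and 0.135% of a library's counts, and 24 to 26 of them reached 1 CPM in a given library.

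In the luminal layer, the first comparison set the library labelled eKO against the library labelled control. *Dio3*, *Dio3os* and *Ascl2* were lower in the library labelled eKO, and *Impact*, *Asb4* and *Meg3* were higher. These 6 were the calls among 31 genes tested. Of all 15694 genes, 17.2% were called in this comparison, 8.08% higher and 9.15% lower, so the share among imprinted genes was near that of the background. An edgeR exact test with the dispersion fixed at 0.1 called 1 imprinted gene higher and 3 lower, without *Impact* and *Meg3*. By that test 3.42% of all genes were called higher and 4.54% lower. The median log2 ratio of the tested imprinted genes was 0.17, against 0.01 over all genes.

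The 7 genes of the *Dlk1*-*Dio3* region on chromosome 12 held the widest difference. *Dio3os* had 1435 counts in the luminal control library, 0 in the eKO library and 281 in the rLif-treated eKO library. *Dio3* encodes the type 3 deiodinase, which inactivates thyroid hormone, and had 109, 0 and 27 counts in the same order. Both genes were thus undetected in the eKO library and present in the others, at the highest count in the control. With 3 counts put in place of the 0 in the eKO library, *Dio3os* was 544-fold lower and *Dio3* 41.3-fold lower than in control. These values leave out the counting error of the other library, and the intervals ended at log2 ratios of -8.79 and -5.05. The microRNA *Mir1247*, whose exon lies within that of *Dio3os* on the same strand, had 42, 0 and 7 counts, so reads in those 82 bases could belong to either gene. With rLif, *Dio3os* was 103-fold and *Dio3* 9.93-fold higher than in the untreated eKO library by the same substitution. The intervals of *Dio3os* and *Dio3* began at log2 ratios of 6.38 and 2.91. Both remained below control, with log2 ratios of -2.40 (interval -2.59 to -2.21) and -2.06 (-2.72 to -1.44).

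The maternally expressed noncoding RNA *Meg3*, of the same region, moved the other way. It had 16 counts in the control, 77 in the eKO and 32 in the rLif-treated eKO library, a log2 ratio of 2.08 (1.29 to 2.96) between eKO and control, which was called. The ratio between rLif-treated and untreated eKO was -1.13 (-1.77 to -0.51), which was not called. *Rian*, a further noncoding RNA of the maternal allele, had 14, 10 and 6 counts, and *Mirg*, the host of a microRNA cluster, had 0, 2 and 3. The paternally expressed *Dlk1*, a membrane protein related to Notch ligands, had 31, 17 and 30 counts and was not called, and *Rtl1*, derived from a retrotransposon, had 0 in every luminal library. Exons of *Meg3*, *Mirg* and *Rtl1* overlap those of microRNA genes, all of which were listed at 0.

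**Figure D2:**
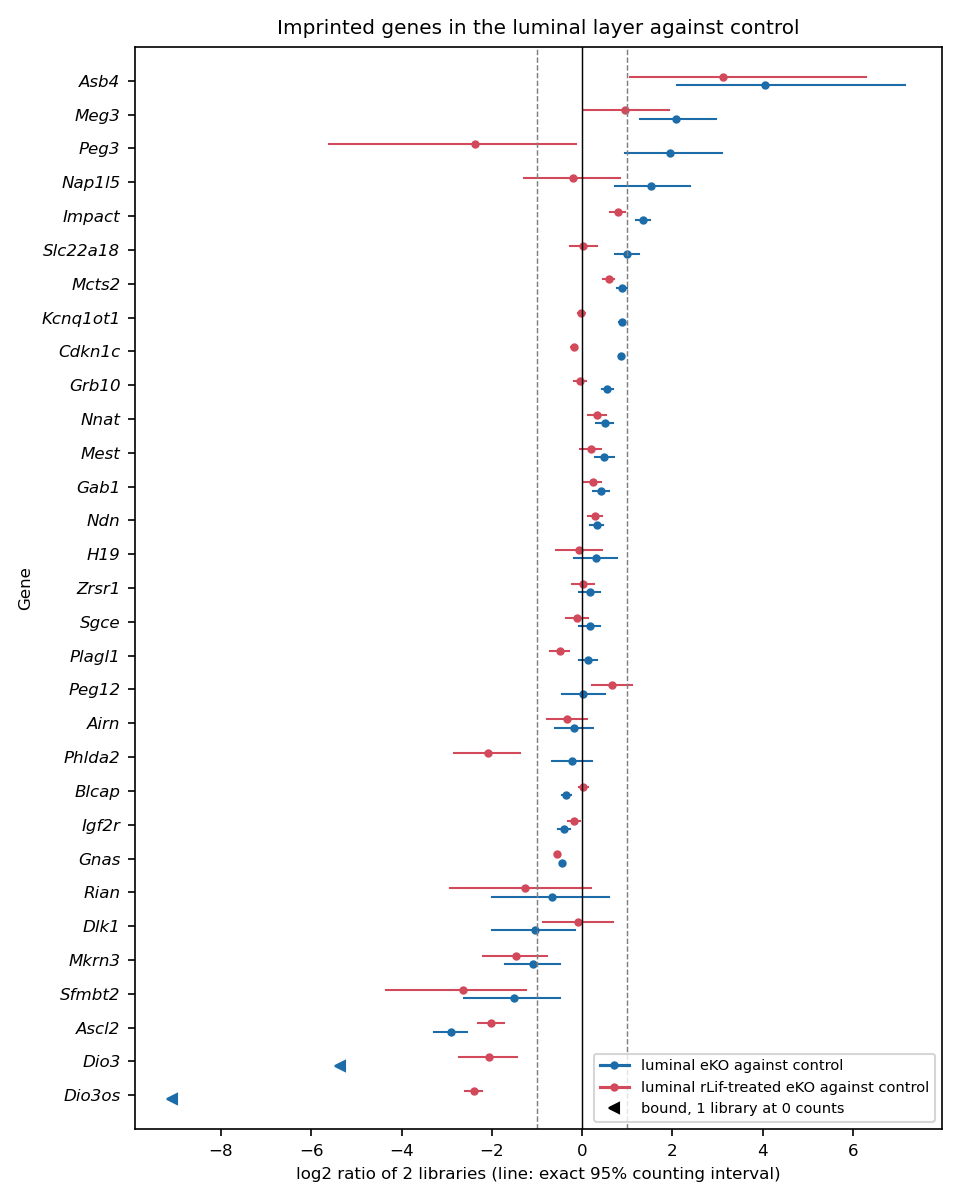
Log2 ratio of the library labelled eKO (blue) and of the library labelled rLif-treated eKO (red) to control for the 31 imprinted genes tested in the luminal layer. Lines are exact 95% counting intervals, triangles are bounds where 1 library had 0 counts, and dashed lines mark a 2-fold difference. *Dio3os*, *Dio3* and *Ascl2* lie left of the dashed line in both comparisons and *Asb4* right of it in both.

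The 6 genes of distal chromosome 7 (*H19*, *Ascl2*, *Kcnq1ot1*, *Cdkn1c*, *Slc22a18* and *Phlda2*, in order along the chromosome) fell into several patterns in the luminal layer. *Ascl2* (chromosome 7, 142966822 to 142969264, minus strand), a basic helix-loop-helix factor required for the placental spongiotrophoblast, had 479 counts in the control, 73 in the eKO and 123 in the rLif-treated eKO library. It was high in the control only, with log2 ratios to control of -2.90 (-3.28 to -2.54) for eKO and -2.01 (-2.30 to -1.72) for rLif-treated eKO, both called. Between rLif-treated and untreated eKO its ratio was 0.89 (0.46 to 1.33), which was not called.

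*Phlda2* (chromosome 7, 143501548 to 143502524, minus strand) had 86, 84 and 21 counts, and was low in the rLif-treated library alone. Its log2 ratio was -0.22 (-0.67 to 0.23) for eKO against control, -2.08 (-2.84 to -1.38) for rLif-treated eKO against control and -1.86 (-2.62 to -1.15) for rLif-treated against untreated eKO, the latter pair called. *H19*, a noncoding RNA that shares enhancers with *Igf2*, had 68, 95 and 67 counts and was called in no luminal comparison.

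*Cdkn1c*, *Slc22a18* and the noncoding RNA *Kcnq1ot1*, which silences neighbouring genes on the paternal copy, shared another pattern. *Cdkn1c* had 4406 counts in the control, 9160 in the eKO and 4024 in the rLif-treated eKO library. *Kcnq1ot1* had 2769, 5819 and 2819 counts. *Slc22a18*, a membrane transporter, had 188, 425 and 198. Each was highest in the library labelled eKO, and the control and rLif-treated values lay close together. Against control, the eKO library had log2 ratios of 0.87 (0.82 to 0.92), 0.89 (0.82 to 0.95) and 0.99 (0.74 to 1.25) for *Cdkn1c*, *Kcnq1ot1* and *Slc22a18*, near the 2-fold limit but not wholly beyond it, and so not called. For rLif-treated against untreated eKO they were -1.05 (-1.10 to -0.99), -0.90 (-0.97 to -0.84) and -0.96 (-1.21 to -0.71), again not called. Of the 10 stroma markers, 8 were also highest in CPM in the library labelled eKO, *Hand2* and *Hoxa11* being the exceptions. The 10 had a median log2 ratio of 0.33 against control, with 1 (*Col3a1*) called higher, and of -0.54 for rLif-treated against untreated eKO. Other lists differed as well. Of 6 smooth muscle markers, 2 were called lower than control in eKO and 4 in rLif-treated eKO, at medians of -0.61 and -1.80. Of 5 endothelium markers, 1 and 2 were called higher, and of 6 immune markers 0 were called. Of 8 luminal epithelium markers, 2 were called higher and 1 lower in eKO, and 0 in rLif-treated eKO. The part of these lists in the luminal ratios was not tested. The exons of *Kcnq1ot1* overlap exons of *Kcnq1* on the opposite strand, which had 388, 303 and 90 counts. The counts of *Kcnq1* followed another order than those of *Kcnq1ot1*, although without strand information reads in the shared exons cannot be assigned.

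Of the *Peg10* region on chromosome 6, *Asb4*, which encodes a subunit of a ubiquitin ligase, had 2 counts in the control, 38 in the eKO and 18 in the rLif-treated eKO library. It was called higher than control in both, with log2 ratios of 4.06 (2.11 to 7.16) and 3.13 (1.06 to 6.28) that rest on 2 counts in the control. Its neighbour *Sgce*, a sarcoglycan, had 295, 377 and 281 counts, and *Peg10*, a retrotransposon-derived gene needed for placental development, had 4, 0 and 0. *Impact*, a regulator of translation under amino acid limitation, had 432, 1252 and 768 counts in the luminal libraries. Its log2 ratio was 1.35 (1.19 to 1.51) for eKO against control, which was called, and 0.79 (0.61 to 0.96) for rLif-treated eKO against control, which was not.

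*Peg3*, a zinc finger gene of proximal chromosome 7 known for effects on growth and maternal behaviour, had 10 counts in the control, 44 in the eKO and 2 in the rLif-treated eKO library. Its ratio between rLif-treated and untreated eKO was called, at -4.32 (-7.41 to -2.38), and that between eKO and control, at 1.95 (0.94 to 3.11), was not. *Peg3as*, which overlaps it on the opposite strand, was listed at 0 throughout. *Sfmbt2*, a polycomb group gene, had 30, 12 and 5 counts and was called lower in the rLif-treated eKO library than in control, at -2.63 (-4.35 to -1.25).

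The rLif-treated eKO library differed from control by 6 calls among 31 imprinted genes, 1 higher (*Asb4*) and 5 lower (*Ascl2*, *Phlda2*, *Dio3*, *Dio3os* and *Sfmbt2*), while 9.16% of all genes were called, 4.12% higher and 5.04% lower. The edgeR exact test called 1 of the 31, *Dio3os* (2.18% of all genes by that test), and with libraries scaled by total counts *Asb4* was not called. Against untreated eKO it differed by 4 calls, 2 higher (*Dio3* and *Dio3os*) and 2 lower (*Peg3* and *Phlda2*), while 15.6% of all genes were called, 7.88% higher and 7.77% lower, and the edgeR exact test did not call *Phlda2*. The median log2 ratios of the tested imprinted genes were -0.09 and -0.31 in these comparisons, against 0.01 and -0.01 over all genes. The comparisons with control share the control library, and those with eKO share the eKO library, so they are not independent of each other. When the libraries were scaled by total counts alone, the median over all genes moved to -0.16 for rLif-treated eKO against control and to -0.12 against untreated eKO, and the values above are relative to the TMM scale.

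The remaining imprinted genes tested in the luminal layer were called in no luminal comparison. *Gnas*, at 13467, 11307 and 9428 counts, had log2 ratios to control of -0.44 and -0.56. *Grb10*, an adaptor that dampens insulin signalling, had 920, 1539 and 915 counts, and *Igf2r*, the receptor that clears Igf2, had 904, 781 and 823. *Airn*, the noncoding RNA that silences *Igf2r* on the paternal copy, had 98, 99 and 80. These genes stayed within a 2-fold difference of control in each library.

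In the *Snrpn* region, *Ndn*, a growth suppressor, had 623, 885 and 783 counts. *Peg12* had 72, 83 and 117, and the ring finger gene *Mkrn3* had 67, 36 and 25. *Mkrn3* was thus highest in control, with log2 ratios of -1.08 (-1.71 to -0.48) and -1.47 (-2.19 to -0.78) whose intervals reached inside the limit. *Magel2* had 0, 0 and 2 counts. *Snrpn* was listed at 0 in the luminal libraries, and *Snurf*, which shares its exons, was also listed at 0, so a count for this pair cannot be read.

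*Mcts2* had 930, 1955 and 1447 counts, and *Nap1l5*, a histone chaperone of the nucleosome assembly family, had 18, 59 and 16. Both were highest in the library labelled eKO, at log2 ratios to control of 0.89 (0.77 to 1.00) and 1.53 (0.74 to 2.38). *Mest*, a hydrolase family gene of the mesoderm, had 290, 464 and 340 counts, *Plagl1*, a zinc finger factor, 406, 504 and 296, *Nnat*, a small membrane protein, 371, 596 and 483, and *Blcap*, in whose intron *Nnat* lies, 1791, 1599 and 1882. *Zrsr1* had 279, 356 and 291 counts and *Gab1* 435, 660 and 530, while *Zdbf2* (0, 4 and 4), *Usp29* (0, 2 and 0) and *Zim1* (0 in all) were not tested. None of the tested genes among these was called.

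In blastocysts, the first comparison set embryos from mothers labelled eKO against embryos from mothers labelled control. *Phlda2*, *Ascl2* and *Cdkn1c* were lower in the eKO library, and no imprinted gene was higher. They were 3 of 32 genes tested, while 3.15% of all 14873 genes were called, 1.29% higher and 1.86% lower. The same 3 genes were the calls in the rLif-treated eKO library against control, in which 4.94% of all genes were called, 0.948% higher and 3.99% lower. The edgeR exact test called 2 imprinted genes, *Phlda2* and *Ascl2*, in each of these comparisons and did not call *Cdkn1c*. By that test 0.437% and 0.834% of all genes were called. The median log2 ratio of the tested imprinted genes was -0.08 and -0.07 in these comparisons, against 0.00 and -0.01 over all genes. Both comparisons use the same control library.

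*Phlda2* had 890 counts in the blastocyst control library, 59 in the eKO library and 105 in the rLif-treated eKO library, a log2 ratio to control of -3.95 (-4.36 to -3.57) and -3.11 (-3.42 to -2.82). *Ascl2* had 335, 53 and 15 counts, at -2.70 (-3.14 to -2.27) and -4.51 (-5.36 to -3.77). *Cdkn1c* had 200, 77 and 54 counts, at -1.41 (-1.81 to -1.03) and -1.92 (-2.38 to -1.48). Each of the 3 was high in the control library and low in both libraries from eKO mothers. They are all maternally expressed genes of distal chromosome 7, an attribute noticed after the values were seen.

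The other genes of the region did not all follow. *Kcnq1ot1* had 1041, 893 and 937 counts, log2 ratios to control of -0.26 and -0.18. *Slc22a18* had 16, 7 and 2 counts, with ratios of -1.23 (-2.75 to 0.13) and -3.03 (-6.19 to -0.94), and *H19* had 629, 503 and 331, with ratios of -0.36 (-0.53 to -0.19) and -0.95 (-1.15 to -0.76), none called. *Igf2*, the growth factor next to *H19* and no member of the named set, had 487, 398 and 267 counts. *Cd81*, which lies between *Ascl2* and *Kcnq1ot1* and is imprinted in the placenta, had 80, 26 and 22 counts and was called lower in both comparisons, at -1.66 and -1.89.

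**Figure D3:**
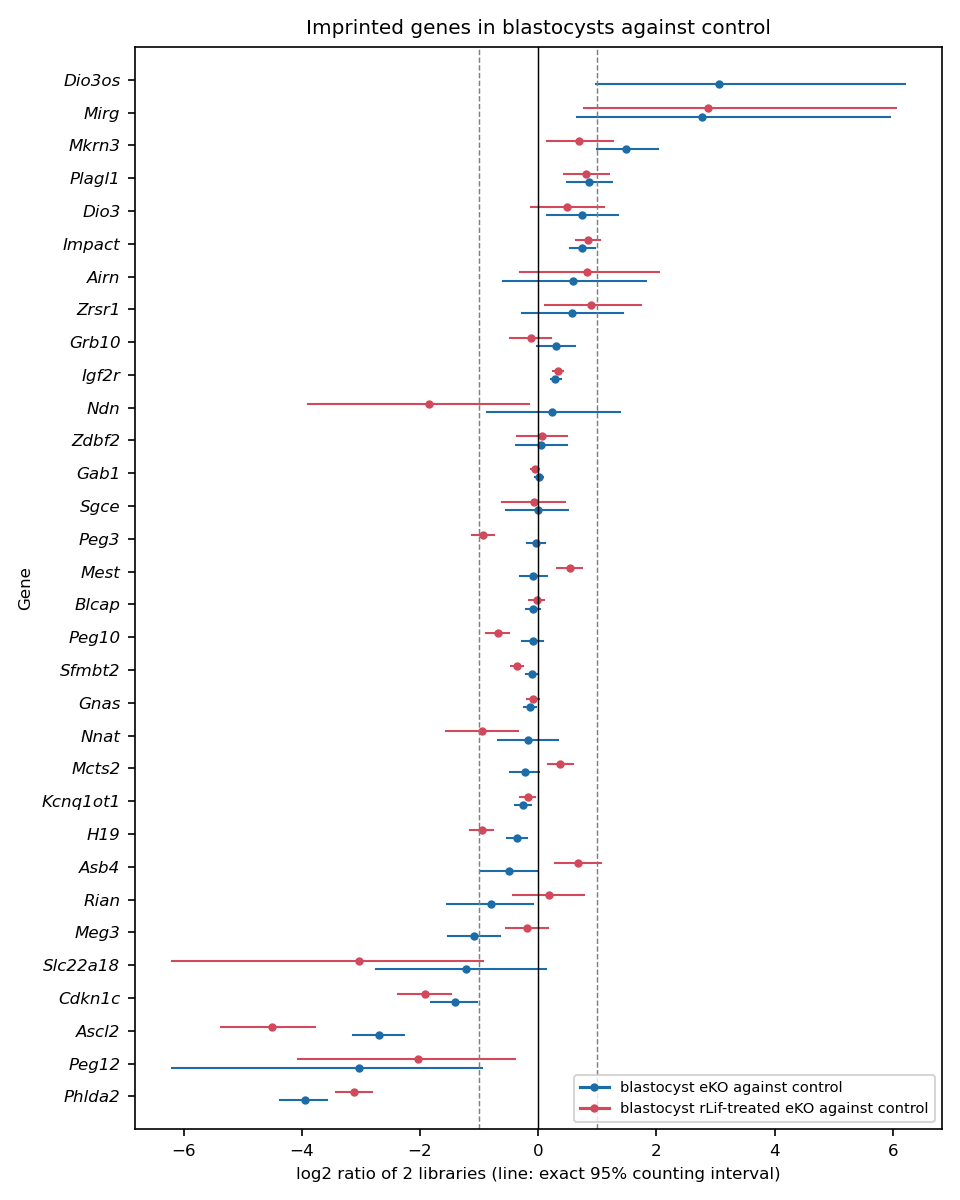
Log2 ratio of the eKO (blue) and rLif-treated eKO (red) blastocyst libraries to control for the imprinted genes tested in blastocysts. Lines are exact 95% counting intervals and dashed lines mark a 2-fold difference. *Phlda2*, *Ascl2* and *Cdkn1c* have both intervals left of the dashed line, and most other genes lie between the lines.

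Markers of stroma were lower in the same libraries, and markers of other uterine cells were not all so. Relative to the luminal library of the same group, the blastocyst level of 9 stroma markers was 1.7% to 13.4% in control (median 2.55%), 0% to 4.01% in eKO (median 0.679%) and 0.115% to 7.84% in rLif-treated eKO (median 0.867%). The tenth marker, *Pdgfra*, was left out here because primitive endoderm also expresses it. Between blastocyst libraries the median log2 ratio of the stroma list to control was -1.30 for eKO, with 2 markers called lower, and -1.71 for rLif-treated eKO, with 5 called lower. The luminal epithelium list had medians of 0.04 and -0.05, with 1 and 2 markers called lower. The keratin *Krt19* (1401, 241 and 108 counts) was the one called in both, and *Krt8* (43414, 46083 and 45421), which trophectoderm also expresses, was called in neither. Smooth muscle markers had medians of -0.02 and -0.35, with 0 called. Immune markers had medians of 0.64 and -0.92, with 2 and 1 called lower. They summed to 60.1, 119 and 21.2 CPM in the control, eKO and rLif-treated eKO libraries. Endothelium markers had medians of -0.30 and -0.54, with 1 called lower in each comparison. Of the glandular epithelium list 2 markers were tested, with medians of -0.41 and -2.02. Of these, 0 were called in eKO and 1 was called lower in rLif-treated eKO.

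The imprinted genes stood differently against these shares. The blastocyst level of *Cdkn1c* was 5.42%, 1.14% and 1.64% of its luminal level in control, eKO and rLif-treated eKO. That of *Slc22a18* was 10.2%, 2.23% and 1.23%, and that of *Cd81* was 2.54%, 0.552% and 0.684%. These genes lay within the range of the stroma markers in each group. The level of *Phlda2* in blastocysts was 1236%, 95.3% and 611% of that in the luminal layer, and the level of *Ascl2* 83.5%, 98.5% and 14.9%, above the highest stroma marker in every group. The luminal counts under these shares themselves differed between groups, at 479, 73 and 123 for *Ascl2* and at 4406, 9160 and 4024 for *Cdkn1c*. The part of uterine cells in the differences of *Phlda2*, *Ascl2*, *Cdkn1c*, *Slc22a18* and *Cd81* was not tested. Markers of embryonic cells moved in part as well. The trophectoderm markers summed to 2838, 3076 and 3158 CPM in the 3 blastocyst libraries, and the inner cell mass markers to 1138, 1199 and 1314 CPM. Of 6 trophectoderm markers, 0 were called in eKO and 1, *Elf5* (1988, 1311 and 902 counts), was called lower in rLif-treated eKO against control. Of 5 primitive endoderm markers, 0 were called in eKO, and *Sox7* (434, 323 and 113) and *Foxa2* (103, 61 and 26) were called lower in rLif-treated eKO. *Foxa2* is on the glandular epithelium list as well, so its counts cannot be assigned to embryonic or uterine cells. The part of these cells in the differences was not tested.

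**Figure D4:**
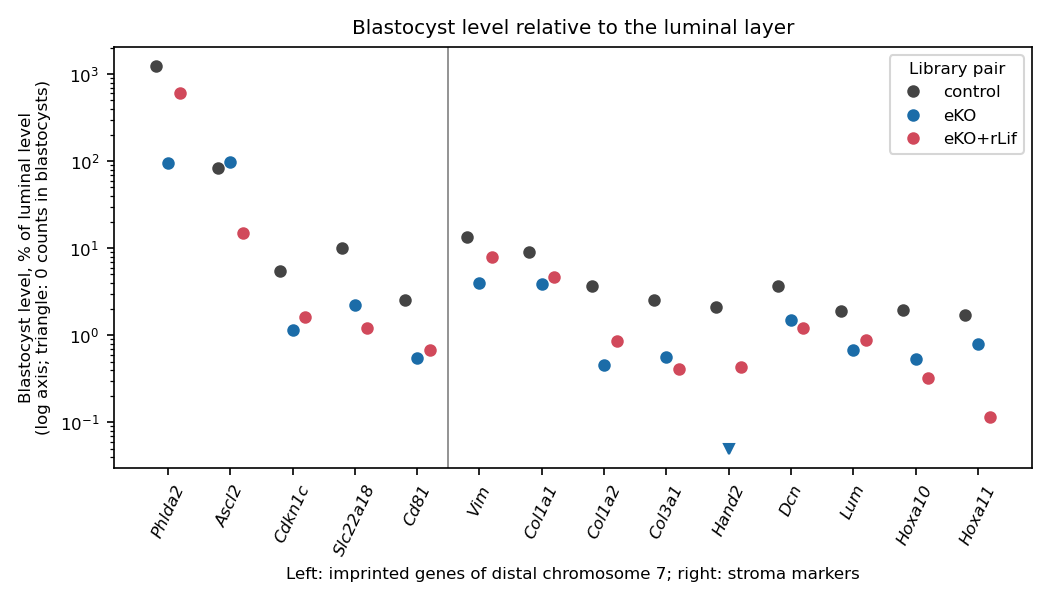
Blastocyst level as a percent of the luminal level of the same group (log axis) for 5 imprinted genes of distal chromosome 7 and 9 stroma markers, with control in grey, eKO in blue and rLif-treated eKO in red. *Phlda2* and *Ascl2* lie above every stroma marker in each group, while *Cdkn1c*, *Slc22a18* and *Cd81* lie within their range.

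Comparing rLif-treated with untreated eKO blastocysts leaves out the control library. None of the 32 imprinted genes was called in this comparison, while 3.75% of all genes were called, 0.914% higher and 2.83% lower. *Phlda2* had a log2 ratio of 0.84 (0.37 to 1.32), *Ascl2* of -1.81 (-2.75 to -0.96) and *Cdkn1c* of -0.50 (-1.03 to 0.02). The median over imprinted genes was -0.02, against -0.01 over all genes.

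The other imprinted genes of blastocysts were called in no comparison between blastocyst libraries. *Gab1* had 3723, 3857 and 3646 counts and *Blcap* had 1088, 1048 and 1092, log2 ratios to control of 0.02 and -0.06 for *Gab1* and of -0.09 and -0.02 for *Blcap*. *Gnas* had 1703, 1585 and 1629 counts, *Igf2r* 2023, 2540 and 2606, and *Sfmbt2* 1751, 1663 and 1391. These abundant genes differed from control by at most 1.28-fold in either library. *Peg3* (693, 695 and 371) and *Peg10* (577, 554 and 366), both paternally expressed, were close in control and eKO and lowest in the rLif-treated library, at log2 ratios to control of -0.93 (-1.12 to -0.75) and -0.68 (-0.88 to -0.49).

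*Impact* (298, 512 and 545), *Plagl1* (94, 175 and 168) and *Mkrn3* (45, 130 and 74) had their lowest count in control, and the interval of *Mkrn3* in eKO, 1.00 to 2.02, touched the limit. *Meg3* had 140, 68 and 125 counts and *Rian* had 46, 27 and 53, both lowest in eKO, at log2 ratios to control of -1.08 (-1.52 to -0.65) and -0.80 (-1.55 to -0.09). *Asb4* had 92, 67 and 149 counts. The paternal genes *Mest* (318, 309 and 467), *Mcts2* (309, 271 and 408) and *Zdbf2* (94, 100 and 100) varied by less than 2-fold.

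The rest were likewise not called or not tested, some of them at low counts that gave wide intervals. *Dio3* had 39, 67 and 56 counts in blastocysts, *Dio3os* had 2, 17 and 3, and *Mirg* had 2, 14 and 15, so the ratios of the latter pair to control rest on 2 counts. *Grb10* had 143, 181 and 133, *Nnat* 70, 64 and 37, *Sgce* 63, 64 and 61, *Zrsr1* 21, 32 and 40, *Airn* 11, 17 and 20, *Ndn* 14, 17 and 4, and *Peg12* 16, 2 and 4. *Snrpn* (6, 0 and 0), *Usp29* (3, 0 and 6), *Rtl1* (3, 0 and 0) and *Nap1l5* (0, 2 and 2) did not reach 10 counts over the 3 libraries, and *Dlk1*, *Magel2* and *Zim1* were at 0 in every blastocyst library, which allows up to 3 counts in each.

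More imprinted genes were called between the tissues than within either. Between blastocysts and luminal layer, 35 imprinted genes were tested. In control, 11 were higher in blastocysts and 16 lower. In eKO, 11 were higher and 14 lower, and in rLif-treated eKO 12 were higher and 14 lower. Of all genes, 25.1% were higher and 27.0% lower in control (52.1% called), 28.0% and 28.8% in eKO (56.8%), and 26.3% and 29.3% in rLif-treated eKO (55.6%). The median log2 ratio of the imprinted genes was -1.15, -0.16 and -0.50, against -0.07, 0.00 and -0.10 over all genes.

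In all 3 groups, 7 imprinted genes were higher in blastocysts (*H19*, *Igf2r*, *Peg3*, *Peg10*, *Sfmbt2*, *Gab1* and *Zdbf2*). Of these, 5 are paternally and 2 maternally expressed. *Sfmbt2*, whose intron carries a large microRNA cluster active in trophoblast, had a log2 ratio of 6.12 (5.60 to 6.70) in control, 7.55 (6.75 to 8.51) in eKO and 8.41 (7.18 to 10.04) in rLif-treated eKO. *Peg10* had 7.43 (6.06 to 9.31) in control. With 3 counts in place of its luminal 0, it was 250-fold and 149-fold higher in eKO and rLif-treated eKO. *Gab1* had 3.35, 2.99 and 3.07, and *Igf2r* 1.42, 2.14 and 1.95. *Zdbf2*, a paternally expressed gene of chromosome 1, was 37.4-fold higher in control, with 3 counts in place of its luminal 0.

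The 12 genes lower in blastocysts in all 3 groups were *Cdkn1c*, *Kcnq1ot1*, *Slc22a18*, *Ndn*, *Peg12*, *Grb10*, *Gnas*, *Nnat*, *Sgce*, *Mcts2*, *Zrsr1* and *Dlk1*. *Kcnq1ot1* was not called in control and rLif-treated eKO with libraries scaled by total counts or in the edgeR exact test, and *Igf2r* and *Mcts2* were not called in control by the latter. *Ndn* had log2 ratios of -5.22, -5.26 and -7.32, and *Cdkn1c* of -4.20, -6.45 and -5.93. *Gnas* had -2.73, -2.40 and -2.24, and its exons overlap those of *Nespas* on the opposite strand, which had 36 to 98 counts per library. *Grb10* had -2.43, -2.65 and -2.49. Of these 12, 8 are paternally and 3 maternally expressed. Neighbours in a cluster could lie on opposite sides, as *Peg10* (higher) and *Sgce* (lower), or *Igf2r* (higher) and *Airn*, which was lower in control and eKO at -2.90 and -2.10.

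Some genes were called in a part of the groups, and *Dio3os* was called in opposite directions. *Phlda2* was higher in blastocysts than in the luminal layer in control (3.63) and rLif-treated eKO (2.61) and had a ratio of -0.07 (-0.58 to 0.43) in eKO. *Dio3os* was lower in blastocysts in control, at -9.23 (-12.28 to -7.37), which rests on 2 counts. In eKO, with 3 counts in place of the luminal 0, *Dio3os* was 7.68-fold higher. *Dio3* was 30.3-fold higher in eKO by the same substitution and not called in the other groups. *Meg3* was higher in control (3.39) and rLif-treated eKO (2.26) and had 0.26 (-0.23 to 0.75) in eKO.

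**Figure D5:**
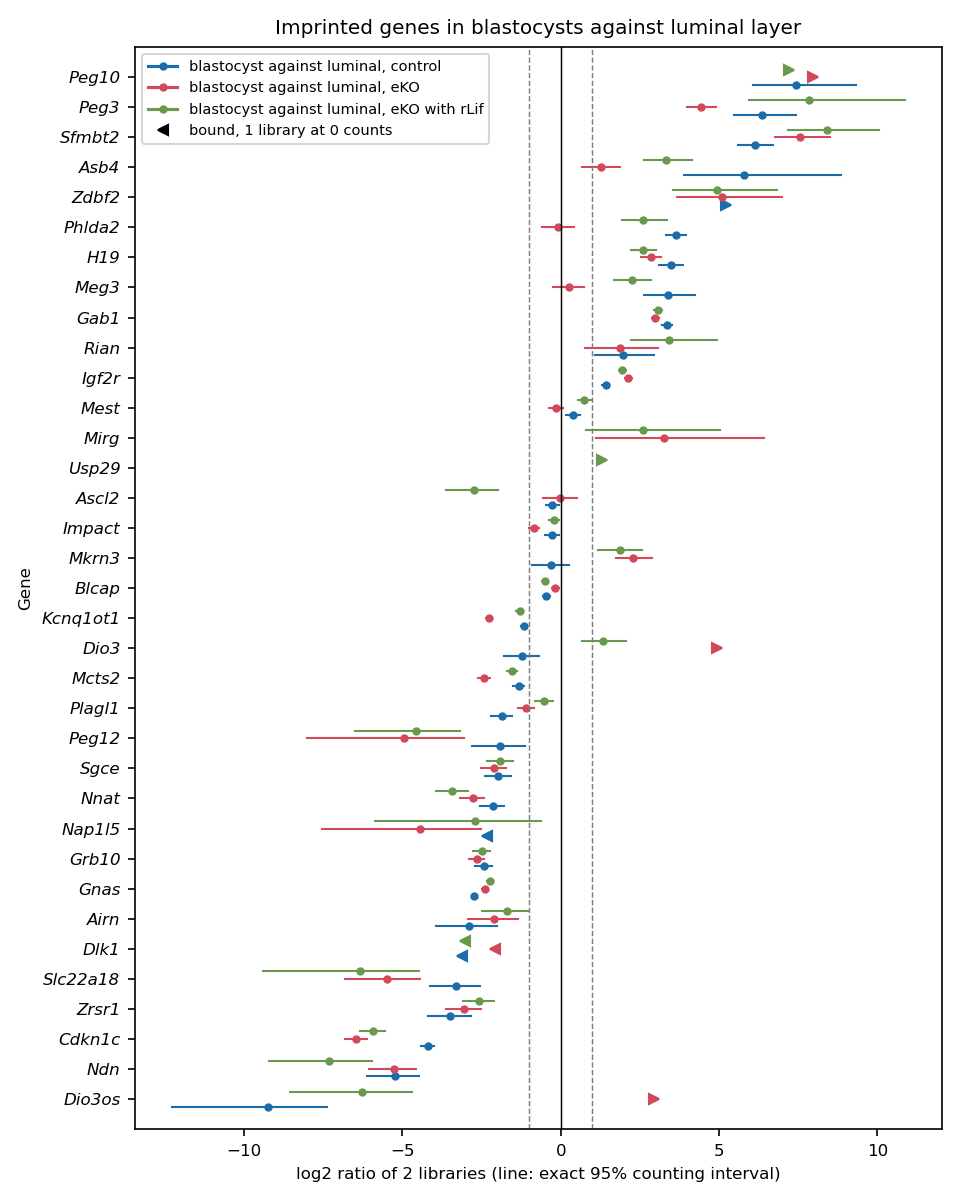
Log2 ratio of blastocysts to luminal layer for the imprinted genes with at least 10 counts over the 6 libraries, with control in blue, eKO in red and rLif-treated eKO in green. Lines are exact 95% counting intervals, and dashed lines mark a 2-fold difference. Where 1 library had 0 counts, triangles show the value with 3 counts in place of 0. *Peg10*, *Peg3* and *Sfmbt2* lie far to the right and *Ndn* and *Cdkn1c* far to the left in all 3 groups, while *Dio3os* lies on both sides and *Phlda2* lies near 0 in eKO.

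Genes that set, keep or remove the methylation of imprinted regions were listed separately, together with 3 polycomb genes (21 genes in all). In the luminal layer, *Zfp57*, the zinc finger protein that protects imprints, had 399, 141 and 423 counts in the control, eKO and rLif-treated eKO libraries, and was called lower in eKO than in control, at -1.69 (-1.97 to -1.41), and higher with rLif than without, at 1.73 (1.45 to 2.01). *Zfp445*, a factor with an overlapping role, had 757, 2192 and 1133 counts and was called higher in eKO, at 1.35 (1.23 to 1.47). *Kdm1b*, a histone demethylase needed to set maternal imprints in the oocyte, had 327, 849 and 268, and *Dppa3*, which protects the maternal genome from demethylation, had 2, 39 and 7. Both were called higher in eKO, at 1.19 (1.00 to 1.38) and 4.10 (2.15 to 7.20), and lower with rLif than without, at -1.52 (-1.73 to -1.32) and -2.34 (-3.74 to -1.16). *Dnmt1*, which copies methylation at replication, had 353, 401 and 382 counts, and *Trim28*, the corepressor that Zfp57 recruits, had 2067, 2397 and 2271. Of the 21 genes, 3 were thus called higher and 1 lower in luminal eKO against control, 1 higher and 2 lower with rLif against without, and 0 in rLif-treated eKO against control. Over all genes the shares called were 17.2%, 15.6% and 9.16% in these comparisons.

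None of the 21 was called in any comparison between blastocyst libraries. *Dppa3*, one of the abundant maternal effect genes of the early embryo, had 12753, 12366 and 19867 counts there, and *Trim28* had 11353, 11437 and 13087. Against the luminal layer, 16 of the 21 were higher in blastocysts in each of the 3 groups and 0 were lower, where 25.1%, 28.0% and 26.3% of all genes were higher.

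Of 30 further imprinted genes, 22 were tested in the luminal layer. *Jade1*, *Smoc1* and *Atp10a* were called higher in eKO than in control, at 1.30 (1.21 to 1.39), 1.90 (1.65 to 2.16) and 2.51 (2.03 to 3.02), and 0 were called lower, where 8.08% of all genes were higher and 9.15% lower. With rLif, *Jade1*, *Smoc1* and *Kcnq1*, a potassium channel, were lower than in untreated eKO, at -1.27, -2.04 and -1.61, and *Kcnq1* was also lower than in control, at -2.15. *Smoc1*, a secreted matrix protein, had 158, 672 and 148 counts and *Jade1*, a histone acetylation cofactor, had 1363, 3822 and 1436, so control and rLif-treated values lay close together, as for *Cdkn1c*. *Igf2* had 12, 51 and 20 counts and *Xist*, the noncoding RNA of the inactive X chromosome, had 3436, 4821 and 3489, neither called. In blastocysts 23 of the 30 were tested and *Cd81* was the one called, lower in both libraries from eKO mothers.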

How the data were processed

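Pooled RNA of laser-microdissected luminal layer and pooled flushed blastocysts were made into libraries by the authors (SMART-seq v4), who aligned reads to GRCm38/mm10 with HISAT2 and counted them per gene with featureCounts (Subread 2.0.0). The deposited values were raw whole-number read counts per gene, although the methods name RPKM. The annotation release, strand setting and handling of multi-mapping reads are not given in the sources used here. Samples were grouped by their labels. The 39 members and all gene lists were chosen with earlier results of these data known, and the TTCNNNGAA search was added later than the other choices.

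TMM scaling (edgeR 4.0.16 under R 4.3.3) was done within a tissue or over all 6 libraries for comparisons between tissues and for levels per kilobase of exon. Genes with at least 10 counts over the compared set were tested. Ratios of 2 libraries had exact 95% Clopper-Pearson intervals (scipy 1.17.1), and the size rule was tried on simulated Poisson counts. Such counts hold counting error only, so the simulation does not show how the rule performs on these libraries. Every member was accounted for with its counts, and of the other lists genes called in a comparison within a tissue were named, with a few fixed genes. Of the markers, glandular symbols that point to the same row were counted once. Alternatives were DESeq2 1.42.0 size factors, total counts, filters of 1 and 50 counts, log2 limits of 0 and 2, leaving out the 10 members with overlapping exons, and an edgeR exact test at a dispersion fixed at 0.1. Depth was 18996158 to 28460465 counts per library, and 0 columns of samples were left unmapped.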

Additional observations from a re-analysis of the deposited data

Results flagged for a closer look

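In 7 cases a gene was called in 1 tissue and had the opposite direction in the other tissue under the same contrast. Each tissue had 1 library per group, and the difference between the tissues was not tested. For eKO against control, the log2 ratio of *Cdkn1c* was 0.87 in the luminal layer and -1.41 in blastocysts. That of *Asb4* was 4.06 and -0.49, and that of *Meg3* was 2.08 and -1.08. For *Dio3* the luminal value was -5.37, with 3 counts in place of the 0 in the library labelled eKO, and the blastocyst ratio was 0.74. For *Dio3os* the luminal value by the same substitution was -9.09 and the blastocyst ratio 3.05, which rests on 2 counts in control. For rLif-treated against untreated eKO, *Phlda2* had -1.86 in the luminal layer and 0.84 in blastocysts. *Dio3os* had a luminal value of 6.69, again by substitution, and a blastocyst ratio of -2.49.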

How the results depend on the processing

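No paired analysis was possible because each group was 1 library, and for the same reason no replicate could be left out. Of 72 recomputed counts of called imprinted genes, 62 stayed within 1.5 times the reported count. With a log2 limit of 0, the called genes rose to 23, 19 and 23 in the luminal comparisons (eKO against control, rLif-treated eKO against control, rLif-treated against untreated eKO) and to 18, 21 and 17 in the blastocyst comparisons in the same order, where 74.7%, 66.2%, 71.4%, 44.8%, 52.9% and 52.7% of all genes were called. With a limit of 2, luminal rLif-treated eKO against control had 1 call and blastocyst against luminal in control had 17, with 1.88% and 29.5% of all genes called. The edgeR exact test at a fixed dispersion gave 1 call for luminal rLif-treated eKO against control, with 2.18% of all genes called. Without the members with overlapping exons, luminal rLif-treated against untreated eKO had 2 calls, and the median blastocyst to luminal log2 ratio in eKO was -0.85. Scaling by total counts moved that median in rLif-treated eKO to -0.27. Where fewer genes or another limit did not set the change, the cause was not tested. No called member changed direction under these alternatives. With libraries scaled by total counts, 7 values of members that were not called changed sign, and without the filter the member median of blastocyst rLif-treated against untreated eKO went from -0.02 to 0.01. Depth limits genes at a few counts, such as *Asb4* in luminal control or *Dio3os* in blastocysts, whose intervals span several log2 units.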
